A study of Gallus gallus with 18 samples.

Results

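The liver makes most of the proteins that carry small molecules in blood, and 6 genes for such carriers were followed here in liver, abdominal fat and ovary. Albumin (ALB, ENSGALG00000020180) is the main protein of plasma and binds fatty acids and hormones. GC (ENSGALG00000011612) encodes the vitamin D binding protein, which belongs to the albumin family. AMBP (ENSGALG00000008973) encodes the precursor of alpha-1-microglobulin, a lipocalin that binds haem, and of bikunin, a protease inhibitor. AHSG (ENSGALG00000008601) encodes fetuin A, which binds calcium phosphate. TF (ENSGALG00000006453) encodes transferrin, the iron carrier of plasma, which the hen oviduct also makes as ovotransferrin of egg white. TTR (ENSGALG00000015143) encodes transthyretin, which carries thyroid hormone and holds the retinol binding protein in plasma. The genes were chosen by function from 7 symbols, and 6 could be matched to an identifier, so that HPX was not analysed here. They make up 6 of the 17108 genes counted. Symbols could be matched for 5824 genes and came from gene tables of the study, which were themselves drawn up from these libraries, so the list is not independent of these data.

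In laying hens, estrogen drives the liver to make yolk precursors beside its ordinary plasma proteins. Plasma carriers reach the follicle through the blood, and several of them are deposited in yolk.

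The hens were Arbor Acres broiler breeders, a strain bred for growth, all reared to the breeder guide's target weight. From 22 wk of age 3 of the sampled hens were fed ad libitum (F1721, F1723 and F1725), and 3 stayed on the guide's restricted feeding (F1724, F6709 and F6710). All were sampled at 30 wk, and the same 6 hens gave liver, abdominal fat and ovary, which makes 18 libraries of total RNA. The ovary samples were stroma with small follicles, as the study describes them. In the library names of the paper, used here, L, F and O stand for liver, abdominal fat and ovary, and the number is that of the hen. The deposited counts name the same libraries with G, F and M. Hens are called by their library of the tissue described, or by their fat library where several tissues are meant. Values of single libraries are given in the order of hens above. Hens are individual birds, so the spread between libraries of a group includes that between animals. Total counts ranged from 14793554 to 23261748 per library (median 19846090), and 3 counts corresponded to between 0.129 and 0.203 CPM, which stands for counts relative to the library total. Levels of single genes are CPM normalized by the trimmed mean of M values (TMM) within a tissue. Sums of markers, fractions of the liver level and ratios of ovary to adipose tissue use CPM without TMM. CPM of both kinds depend on gene length. Levels of one gene are therefore compared with those of another only as ratios set against the same ratio in another tissue. Each fold change is ad libitum over restricted feeding, on the log2 scale. The sum of 5 adipocyte markers was 13175 to 27422 CPM in adipose libraries, against 8.22 to 20.5 in liver and 185 to 318 in ovary. The sum of 9 ovary markers was 806 to 1893 CPM in ovary libraries, against 7.28 to 104.5 in adipose tissue and 1.90 to 4.56 in liver. In a whole tissue, fewer cells of a type and less RNA per cell cannot be told apart.

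Liver held nearly all of the signal of these genes, and no carrier gene passed the test between feeding groups there. Albumin alone took 11.2% to 11.3% of the liver counts in the ad libitum group and 10.9% to 13.9% in the restricted group. The 6 genes together took 13.7% to 13.9% of the counts of ad libitum livers and 13.02% to 16.5% of those of restricted livers. ALB had 107121, 116572 and 127507 CPM in the ad libitum livers and 120313, 105038 and 133186 CPM in the restricted livers. The groups overlapped, with a log2 fold change of -0.03 (SE 0.25; 95% interval -0.59 to 0.53; edgeR quasi-likelihood test, adjusted p = 0.965). The interval bounds the feeding difference of liver albumin at a ratio between 0.663 and 1.45.

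GC was the steadiest of the 6 in liver, with 3809, 3545 and 3340 CPM in the ad libitum group and 3305, 3343 and 3053 CPM in the restricted group. It had a log2 fold change of 0.14 (SE 0.19), and only 3.39% of the 10339 genes tested in liver varied less within the feeding groups. AMBP had 1232, 1546 and 1657 CPM in ad libitum livers and 1722, 1316 and 1461 CPM in restricted livers. Its fold change was -0.02 (SE 0.21), with overlapping groups. TF had 16859, 17466 and 14490 CPM in the ad libitum group and 17982, 11771 and 12521 CPM in the restricted group. Its highest library belonged to a restricted hen, and the log2 fold change was 0.21 (SE 0.25).

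TTR and AHSG varied more between livers. TTR had 1056, 1507 and 1988 CPM in the ad libitum group and 2546, 1539 and 2612 CPM in the restricted group. The restricted hen L6709 lay among the ad libitum hens, with a log2 fold change of -0.56 (SE 0.30; 95% interval -1.25 to 0.14; edgeR, adjusted p = 0.422). AHSG had 1697, 1481 and 4999 CPM in ad libitum livers and 4020, 2132 and 4985 CPM in restricted livers. The highest and the lowest of these 6 libraries both came from ad libitum hens, with a log2 fold change of -0.45 (SE 0.50). It was -1.21 (SE 0.38) without hen L1725 and -0.13 (SE 0.52) without hen L1723. The spread of AHSG within the groups was larger than that of 98.4% of the genes tested in liver.

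Of the 6 carriers, 2 had a fold change above 0 in liver and 4 below it, with a median of -0.03, against -0.00 over all genes tested. None had an unadjusted p under 0.05, which 13.7% of the genes tested in liver had. None passed the false discovery rate of 0.1, which 0.00967% of the genes passed in the edgeR quasi-likelihood test. DESeq2 and the likelihood ratio test with gene-wise or trended dispersions also called 0 of the 6 in liver, beside 2.33%, 1.41% and 3.82% of all genes.

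**Figure D1:**
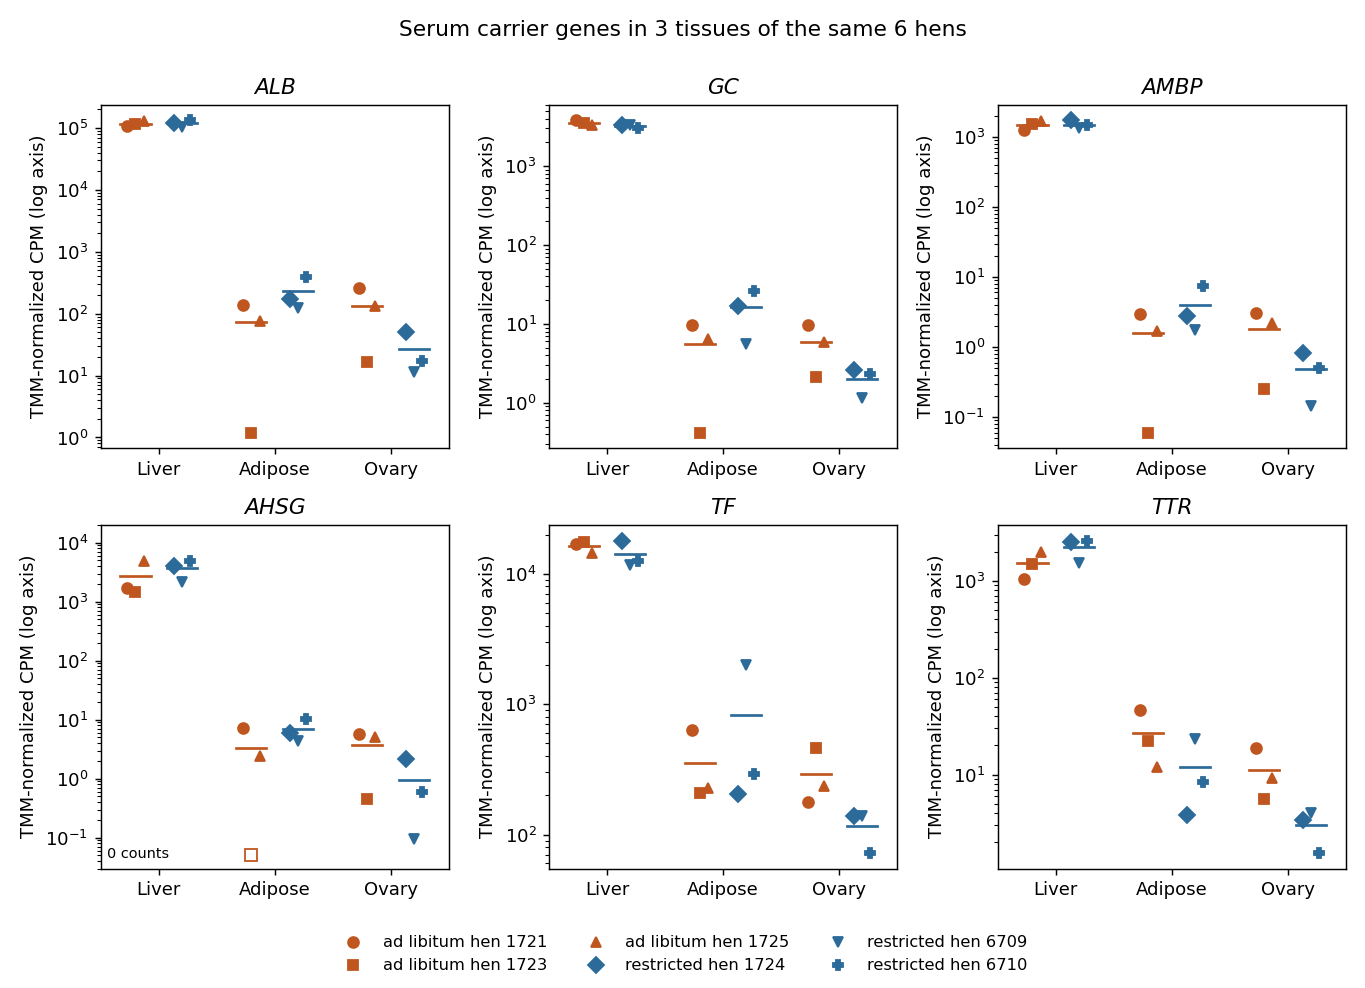
TMM-normalized CPM of the 6 carrier genes (log axis) in liver, adipose tissue and ovary, with ad libitum hens left of restricted hens, 1 symbol per hen and lines at the group means. ALB, GC, AMBP and AHSG have their lowest adipose value in the ad libitum hen F1723 (open symbol at 0 counts for AHSG), while the highest adipose value of TF, 2001 CPM, belongs to the restricted hen F6709.

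Outside the liver the 6 genes were found at small fractions of the liver level of the same hen, and not at the same fraction. ALB in adipose tissue was 0.00107% to 0.247% of the CPM in the liver of the same hen, with a median of 0.124%, and in ovary it was 0.0111% to 0.235% with a median of 0.0263%. The median fraction of GC was 0.235% in adipose tissue and 0.0733% in ovary. The median fractions of AMBP were 0.148% and 0.0389%, and those of AHSG were 0.160% and 0.0402%, in the same order. TF reached a median of 1.88% of the liver level in adipose tissue and 1.11% in ovary, with 17.5% in the adipose tissue of hen F6709. TTR reached a median of 1.11% in adipose tissue and 0.318% in ovary. These values describe tissues known to differ in these genes, and no test was made of them.

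Set against albumin of the same library, the make-up of the carriers in adipose tissue and ovary differed from that of liver for TF and TTR most. For every 1000 ALB counts there were 751 to 174400 TF counts in adipose libraries and 692 to 27852 in ovary libraries, against 94.0 to 157 in liver libraries. The median was 28.5 times the liver median in adipose tissue and 26.4 times in ovary. TTR had 21.7 to 18500 counts per 1000 ALB counts in adipose tissue and 67.4 to 346 in ovary, against 9.86 to 21.2 in liver. All 6 adipose and all 6 ovary libraries lay above the 6 livers for both genes. The largest values of both came from the adipose tissue of hen F1723, where ALB itself had 20 counts.

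GC also lay above the livers in all 12 libraries, but by less, with 44.0 to 350 counts per 1000 ALB counts in adipose tissue and 37.6 to 135 in ovary, against 22.9 to 35.6 in liver. AMBP had 13.8 to 50 in adipose tissue and 11.8 to 29.3 in ovary, against 10.97 to 14.3 in liver. The highest adipose values of GC and AMBP, in hen F1723, rest on 7 and 1 counts beside 20 of ALB. The highest ovary value of AMBP, in hen O6710, rests on 10 counts. Of its adipose libraries 5 of 6, and of its ovary libraries 4 of 6, lay above the liver range. AHSG had 0 to 52.8 in adipose tissue and 8.33 to 43.0 in ovary, against 12.7 to 39.2 in liver, and 4 of 6 libraries of each tissue lay within the liver range. The ratios of AMBP and AHSG to albumin had medians 1.24 to 1.59 times and 1.17 to 1.21 times the liver median.

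**Figure D2:**
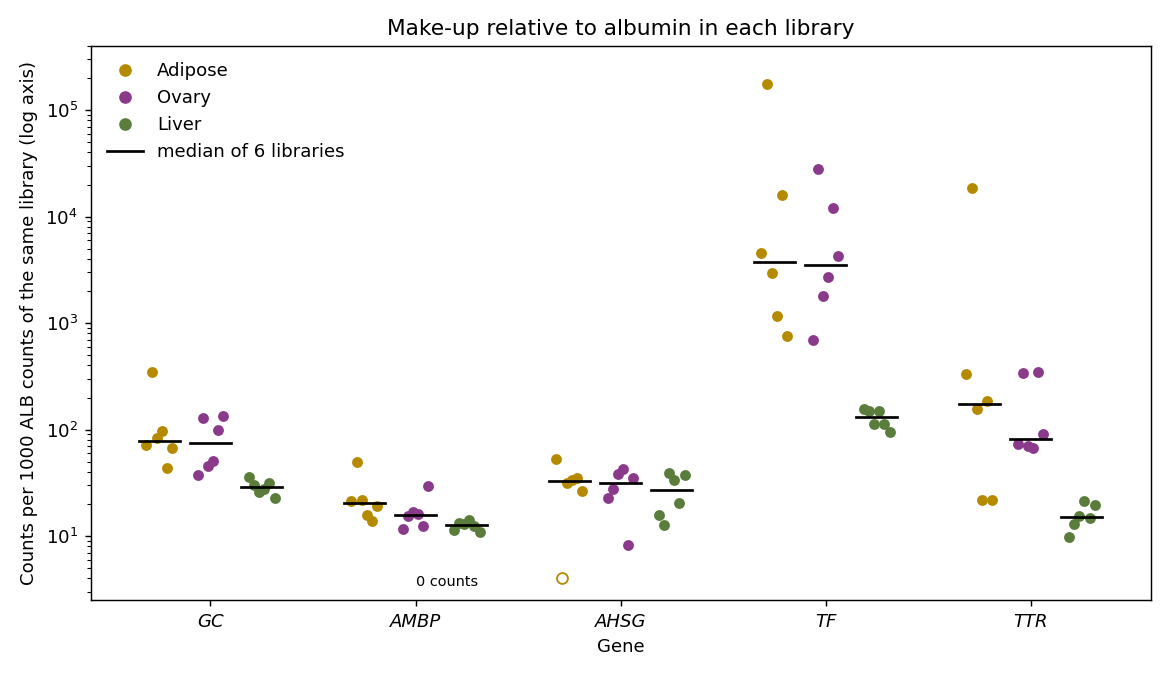
Counts of 5 carrier genes per 1000 ALB counts of the same library (log axis) in adipose tissue, ovary and liver, with 6 libraries per tissue and black lines at the medians. AHSG and AMBP lie near the liver values, whereas every adipose and ovary value of TF (at least 692) and TTR (at least 21.7) lies above the highest liver value (157 and 21.2).

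In adipose tissue, ALB, GC, AMBP and AHSG varied from hen to hen in the same pattern and did not pass the test between feeding groups. ALB had 138, 1.20 and 77.0 CPM in the ad libitum group (hens F1721, F1723 and F1725) and 175, 125 and 387 CPM in the restricted group (hens F1724, F6709 and F6710). The value of hen F1723 rested on 20 counts. The groups overlapped, and ALB had a log2 fold change of -1.66 (SE 1.20; 95% interval -4.48 to 1.15; edgeR, adjusted p = 0.907). GC had 9.83, 0.420 and 6.47 CPM in the ad libitum group and 17.0, 5.52 and 26.0 CPM in the restricted group, with a log2 fold change of -1.53 (SE 0.95). AMBP had 2.96, 0.0599 and 1.69 CPM in ad libitum hens and 2.76, 1.74 and 7.46 CPM in restricted hens, with a log2 fold change of -1.32 (SE 0.99). In all 4 genes the lowest library was that of hen F1723 and the highest that of hen F6710.

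AHSG had 7.32, 0 and 2.45 CPM in the ad libitum group and 5.87, 4.42 and 10.3 CPM in the restricted group. The fit gave AHSG -1.06 (SE 1.15) on the log2 scale, with overlapping groups. Leaving out 1 hen at a time, this value ran from -2.46 without hen F1721 to -0.49 without hen F1723, whose library had 0 counts. Across the 6 adipose libraries the 6 pairs among these 4 genes had Pearson's r of 0.89 to 0.96 on log2(CPM + 2), given as a description, since the libraries share their depth and tissue make-up. For ALB, 99.8% of the 11914 genes tested in adipose tissue varied less within the feeding groups.

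TF and TTR followed other hens in adipose tissue. TF had 632, 209 and 226 CPM in the ad libitum group and 204, 2001 and 291 CPM in the restricted group. The 2001 CPM of hen F6709 stood far above the other 5 libraries. TF had a log2 fold change of -1.23 (SE 0.90), and without hen F6709 it was 0.55. In the same library the egg white genes SPINK7, AVD and LYZ, the 3 matched of 5 listed as markers of oviduct, summed to 439 CPM, of which SPINK7 made up most. The sum was 28.9 and 38.8 CPM in the other restricted hens and 22.8 to 29.3 CPM in the ad libitum hens. LYZ (lysozyme) had 24.7 CPM in that library and 2.17 to 4.38 CPM in the other adipose libraries, and AVD (avidin) had 44.2 CPM and 4.50 to 15.2 CPM. SPINK7 had 341 CPM there and 7.49 to 35.9 CPM in the others, but it was also abundant in liver (2961 to 7270 CPM), where TF is high as well, so that its symbol may not stand for an oviduct gene here. None of the 3 markers was at 0 in an adipose library, and their part in the TF value was not tested.

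TTR was the only carrier with a fold change above 0 in adipose tissue. It had 46.5, 22.2 and 12.1 CPM in the ad libitum group and 3.84, 23.5 and 8.40 CPM in the restricted group. Hen F6709 lay among the ad libitum hens, and the log2 fold change was 1.18 (SE 0.71; 95% interval -0.50 to 2.85; edgeR, adjusted p = 0.907). Without hen F6709 it was 2.16 (SE 0.64), and without hen F1721 it was 0.52 (SE 0.73). Of the 6 fits that left out 1 hen, only that without hen F6709 had an unadjusted p under 0.05. The r of TTR with ALB over these 6 libraries was -0.32 and that with TF was 0.56, as a description.

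The 6 carriers in adipose tissue had a median log2 fold change of -1.27, against 0.01 over all genes tested, with 1 above and 5 below 0. GC, AMBP and AHSG were tested only because all restricted hens exceeded 1 CPM, as hen F1723 lay under it. This favours a fold change below 0 for these genes and for the median. None had an unadjusted p under 0.05, which 5.19% of the genes tested had, and none passed the false discovery rate of 0.1 in the edgeR quasi-likelihood test, DESeq2 or the likelihood ratio test with gene-wise dispersions, where 0.00839%, 0.658% and 0.739% of the genes did. With trended dispersions the likelihood ratio test called ALB, TF and GC, beside 2.93% of all genes.

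In ovary all 6 carriers had higher mean levels in the ad libitum group, and the 4 that could be tested did not pass the adjusted threshold. ALB had 256, 16.4 and 132 CPM in the ad libitum group and 50.7, 11.5 and 17.1 CPM in the restricted group. Hen O1723 was again the lowest of the ad libitum hens and lay among the restricted hens. The log2 fold change was 2.35 (SE 0.95; 95% interval 0.11 to 4.59; edgeR, adjusted p = 0.878). GC had 9.62, 2.13 and 5.98 CPM in the ad libitum group and 2.59, 1.15 and 2.31 CPM in the restricted group, with overlapping groups and a log2 fold change of 1.55 (SE 0.60; edgeR, adjusted p = 0.878).

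AMBP and AHSG stayed under 1 CPM in at least 1 ovary library of each group and were not tested with the others. AMBP had 3.01, 0.254 and 2.22 CPM in ad libitum hens and 0.825, 0.144 and 0.502 CPM in restricted hens. AHSG had 5.83, 0.456 and 5.07 CPM in ad libitum hens and 2.18, 0.0962 and 0.602 CPM in restricted hens, where the lowest value is 2 counts. Without the filter their log2 fold changes were 1.91 (SE 0.93) and 1.998 (SE 1.12), with adjusted p of 0.861 for both in edgeR. The order of the 6 libraries was the same for ALB, GC, AMBP and AHSG, with Spearman's rho of 1 for each pair.

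The groups did not overlap for TF and TTR in ovary. TF had 177, 458 and 235 CPM in the ad libitum group and 138, 140 and 72.3 CPM in the restricted group. Every ad libitum hen lay above every restricted hen, with a log2 fold change of 1.31 (SE 0.41; 95% interval 0.34 to 2.28; edgeR, adjusted p = 0.878). Its highest library was that of hen O1723, in which ALB was lowest among the ad libitum hens. TTR had 18.7, 5.58 and 9.17 CPM in ad libitum hens and 3.42, 3.99 and 1.56 CPM in restricted hens. Its log2 fold change was 1.90 (SE 0.56; 95% interval 0.59 to 3.21; edgeR, adjusted p = 0.878). With 3 hens a group an exact permutation test cannot give a p below 0.1, so separation is reported without it.

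Separation in this direction was found for 2 of the 4 tested carriers, and 6.01% of the 12871 genes tested in ovary showed it. All 4 had an unadjusted p under 0.05, as had 4.85% of the genes tested. Their median log2 fold change was 1.72, against -0.02 over all genes. No gene of the ovary (0%) passed the false discovery rate of 0.1 in the edgeR quasi-likelihood test, and DESeq2 and the likelihood ratio test with gene-wise dispersions, which called 0.374% and 0.186% of the genes, called 0 of the 4. With trended dispersions the likelihood ratio test called ALB, TF and TTR, beside 1.9% of all genes. Leaving out 1 hen at a time, ALB and GC each kept an unadjusted p under 0.05 in 2 of 6 fits, those without hen O1723 or O1724. The fold change of ALB ran from 1.48 (SE 0.90) without hen O1721 to 3.25 (SE 1.01) without hen O1724, and that of GC from 1.001 (SE 0.59) without hen O1721 to 1.94 (SE 0.48) without hen O1723. TTR kept an unadjusted p under 0.05 in all 6 fits that left out 1 hen, with fold changes of 1.30 to 2.21. TF gave 0.81 to 1.56 and lost it only without hen O1723, where it had its highest level.

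Markers of other cells were compared in the same ovary libraries. The sum of 11 hepatocyte enzyme genes was 276 to 365 CPM in ad libitum hens and 193 to 411 CPM in restricted hens. FABP1 was at 0 in hen O6709, and the sum was 6638 to 7959 CPM in livers. Most of the ovary sum was AKR1D1, with 233 to 287 CPM in ad libitum hens and 168 to 340 CPM in restricted hens. Of the 7 enzymes tested in ovary 6 had fold changes above 0, with a median of 0.58. The enzymes HAL and UROC1 passed the filter only through the ad libitum group, which favours a fold change above 0. HPD and FBP1 had an unadjusted p under 0.05, as had 4.85% of all genes tested in ovary. Their groups did not overlap, as for 6.01% of the genes in that direction. HPD, an enzyme of tyrosine breakdown, had 5.73, 4.36 and 3.87 CPM in ad libitum ovaries and 1.95, 1.49 and 1.71 CPM in restricted ovaries (log2 fold change 1.44, SE 0.32). FBP1, an enzyme of gluconeogenesis, had 16.6, 13.7 and 15.3 CPM in ad libitum ovaries and 7.13, 11.1 and 5.27 CPM in restricted ovaries (0.96, SE 0.33). Both were thus higher in the ad libitum group. TAT, another enzyme of tyrosine breakdown, had a fold change below 0 (-0.64, SE 0.40) and overlapping groups. It had 32.0, 22.5 and 15.1 CPM in ad libitum ovaries and 20.4, 35.8 and 52.4 CPM in restricted ovaries. AKR1D1 had a fold change of 0.06 (SE 0.27). In adipose tissue the sum was 80.8 to 198 CPM in ad libitum hens and 89.2 to 127 CPM in restricted hens, with none at 0 and 86.3 CPM in hen F1723. HPD alone had 31.5 to 90.6 CPM. TAT, another enzyme of tyrosine breakdown, had its lowest adipose level in hen F1723, 0.180 CPM, and its highest in hen F6710, 6.31 CPM, the same hens as for ALB. Of the 8 enzymes tested in adipose tissue 3 had fold changes above 0 and 5 below, with a median of -0.14. The sum of 3 erythrocyte genes was 8349 CPM in the ovary of hen O1723. It was 561.3 and 811 CPM in the other ad libitum ovaries, against 120.5 to 1081 CPM in restricted ovaries. The 2 macrophage genes matched of 5 listed summed to 54.8 to 127 CPM in ad libitum ovaries and 50.5 to 61.9 CPM in restricted ovaries, with none at 0. C1QA, a complement component made by macrophages, had 32.1, 56.9 and 59.3 CPM in ad libitum ovaries and 26.4, 25.0 and 10.1 CPM in restricted ovaries. These did not overlap, as was found for 6.01% of the genes tested in ovary in that direction. MARCO, a scavenger receptor of macrophages, had 20.8, 36.7 and 70.9 CPM in ad libitum ovaries and 28.6, 34.1 and 39.6 CPM in restricted ovaries, with overlap and the lowest value in an ad libitum hen. The part of these cells in the ovary values was not tested.

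**Figure D3:**
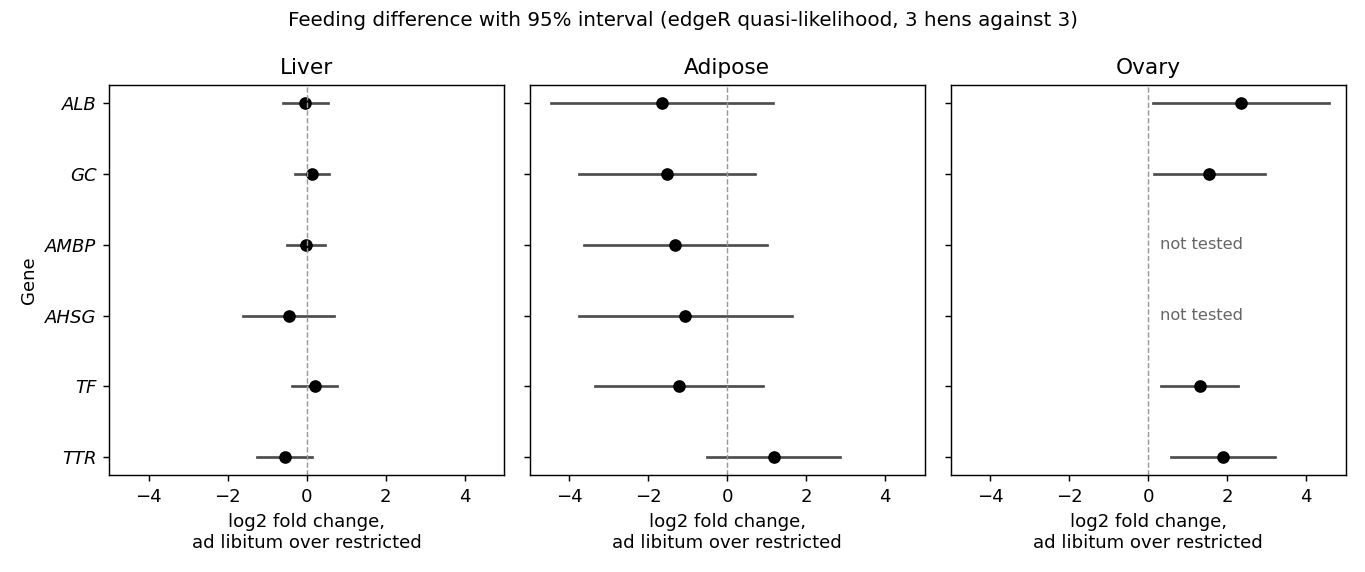
Log2 fold change of ad libitum over restricted feeding (points) with 95% intervals (lines) for the 6 carrier genes in liver, adipose tissue and ovary, from 3 hens against 3. All liver intervals and all adipose intervals include 0, and the 4 ovary intervals lie above 0 before adjustment, from 1.31 for TF to 2.35 for ALB.

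Because both tissues came from the same hens, ovary and adipose tissue were compared within each hen. The ratio of ovary to adipose CPM of ALB was 1.89, 13.3 and 1.65 in the ad libitum hens F1721, F1723 and F1725, and 0.265, 0.0901 and 0.0517 in the restricted hens F1724, F6709 and F6710. Albumin counts were thus higher in ovary than in adipose tissue in each ad libitum hen and lower in each restricted hen. The ratio of GC was 1.002, 4.92 and 0.891 in ad libitum hens and 0.140, 0.205 and 0.104 in restricted hens. AMBP had ratios of 1.04 and 1.27 in the ad libitum hens F1721 and F1725 and of 0.274 and 0.0787 in the restricted hens F1724 and F6710. Its other ratios rest on few counts, with 5 counts in ovary and 1 in adipose tissue of hen F1723, and 3 in ovary and 33 in adipose tissue of hen F6709. AHSG had ratios of 0.816 and 1.998 in hens F1721 and F1725, against 0.341 and 0.0685 in hens F1724 and F6710. Hen F1723 had 9 AHSG counts in ovary and 0 in adipose tissue, a ratio of at least 2.46 with the limit of 3 counts in that library, and hen F6709 had 2 and 84 counts.

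For ALB, GC, AMBP and AHSG the ratios of the ad libitum hens all lay above those of the restricted hens, whereas those of TF and TTR overlapped. Separation in this direction was found for 6.08% of the 13233 genes tested in these tissues, and in the opposite direction for 3.11%. AMBP and AHSG were among the tested genes only through the restricted adipose libraries, which favours low ratios in restricted hens. TF had ratios of 0.287, 2.12 and 1.003 in ad libitum hens and 0.622, 0.0683 and 0.291 in restricted hens. TTR was lower in ovary than in adipose tissue in all 6 hens, with ratios of 0.412, 0.244 and 0.729 in ad libitum hens and 0.815, 0.167 and 0.217 in restricted hens.

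**Figure D4:**
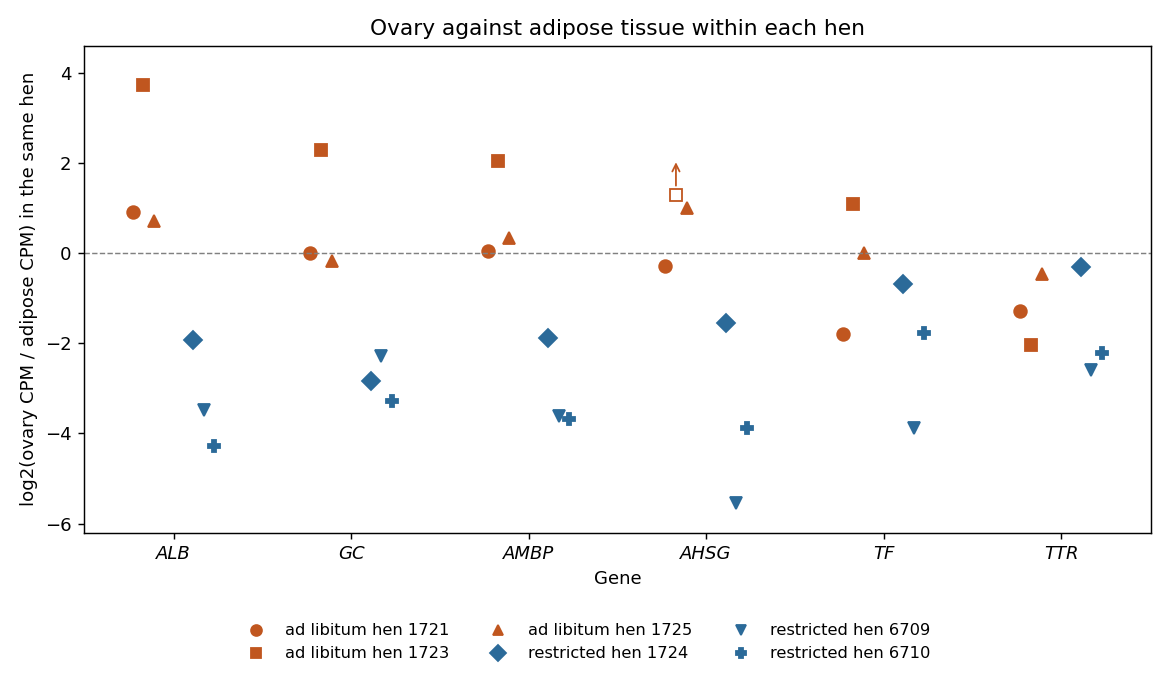
Log2 ratio of ovary CPM to adipose CPM of the same hen for the 6 carrier genes, with ad libitum hens left of restricted hens and 1 symbol per hen. The open symbol with an arrow is a lower bound for AHSG in hen F1723, which had 0 adipose counts. Ratios of ALB, GC, AMBP and AHSG do not overlap between the groups, and those of TF and TTR do.

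The difference between the feeding effects of ovary and adipose tissue was tested as an interaction in the 12 libraries. For ALB the fold change in ovary exceeded that in adipose tissue by 4.02 on the log2 scale (SE 1.71; 95% interval 0.27 to 7.76), and in the paired fit with the hen as a replicate block by 4.83 (SE 0.98; 95% interval 2.52 to 7.14). For GC it was 3.09 (SE 1.25) and 3.37 with the block (SE 0.71). For AMBP it was 3.23 (SE 1.52) and 3.46 with the block (SE 0.81). For AHSG it was 3.06 (SE 1.83) and 4.25 with the block (SE 1.31). AMBP and AHSG passed the filter here only through the restricted adipose libraries, which favours a difference above 0. TF had 2.53 (SE 1.09), and less with the block, 1.92 (SE 1.06). TTR had 0.71 (SE 0.96) and 0.52 with the block (SE 0.74). Without the block ALB, TF and GC had an unadjusted p under 0.05, as had 4.64% of all genes. When 1 hen was left out at a time, ALB and TF kept it in 2 of 6 fits and GC in 3 of 6. With the block ALB, GC, AMBP and AHSG had one, as had 4.48% of all genes. No gene passed the false discovery rate of 0.1 (0%), with adjusted p of at least 0.982 for the carriers without the block and 0.907 with it.

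Against liver, TTR had the smallest p of the carriers. Its feeding effect in ovary exceeded that in liver by 2.48 (SE 0.66; 95% interval 1.04 to 3.92; edgeR, adjusted p = 0.732), and by 2.38 with the replicate block (SE 0.77; edgeR, adjusted p = 0.808). TTR, GC (1.43, SE 0.65) and AMBP (1.96, SE 0.88) had an unadjusted p under 0.05 in this interaction, as had 6.72% of all genes. With the block these were TTR and AHSG (2.599, SE 1.09), against 6.13% of all genes. Between adipose tissue and liver none of the 6 carriers had one without or with the block, against 5.04% and 3.98% of all genes.

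The genes most like ALB, TF and TTR were taken over the 12 adipose and ovary libraries, with tissue means removed, by Pearson's r on log2(CPM + 2). These libraries come from 6 hens and share tissue and depth, and no test was made. For ALB they were APOV1 (r 0.99), VTG2 (0.99), APOB (0.97), PIT54 (0.97) and LBFABP (0.96), of which APOV1, VTG2 and APOB encode yolk precursors made by the liver. VTG2 had 127, 1.02 and 77.8 CPM in ad libitum adipose tissue and 229, 90.3 and 417 CPM in restricted adipose tissue. Hen F1723 was thus lowest and hen F6710 highest, as for ALB. VTG2 was picked by its r with ALB in these libraries, so that a shared order is largely set by the choice. For TF they were VIPR1 (0.92), RBM47 (0.92), ADAM28 (0.91), BCL2L15 (0.90) and GLIPR1L (0.89). ADAM28, a membrane metalloprotease, had 60.8 CPM in the adipose tissue of hen F6709 and 1.55 to 17.0 CPM in the other adipose libraries. It was likewise picked by its r with TF in these libraries. For TTR they were LIPA (0.93), CSTA (0.93), ATP6V0D2 (0.92), HMOX1 (0.91) and TLL1 (0.90). LIPA is the acid lipase of lysosomes, ATP6V0D2 a subunit of the vacuolar proton pump and HMOX1 the inducible haem oxygenase. The 3 carriers shared none of these genes. In liver, with 6 libraries, the closest genes were GALNT18 for ALB (r 0.93), TIPARP for TF (0.98) and CECR1 for TTR (0.98). They were LAPTM5 for GC (0.97), CTPS2 for AMBP (0.97) and COG6 for AHSG (0.97).

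Albumin and GC lie on 1 chromosome in the RefSeq annotation of GRCg7b, with 5 protein-coding genes between them, among them NPFFR2, ADAMTS3 and ANKRD17. Their r was 0.97 in ovary, 0.94 in adipose tissue and -0.70 in liver, over 6 libraries each, as a description. In liver the levels of GC spanned a ratio of only 1.25 between the highest and the lowest library and those of ALB one of 1.27.

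Other plasma carriers were looked at for comparison, 11 of 17 listed symbols having an identifier. In ovary the 6 tested all had fold changes above 0, with a median of 1.45, and 5 had an unadjusted p under 0.05, against 4.85% of all genes tested in ovary. CP (ceruloplasmin, the copper carrier) had 137, 149 and 102 CPM in ad libitum ovaries and 64.6, 54.9 and 28.0 CPM in restricted ovaries, which did not overlap (log2 fold change 1.39, SE 0.32; edgeR, adjusted p = 0.878), as was found for 6.01% of the genes in that direction. PIT54, a haemoglobin binding protein of birds, had 2.53 (SE 1.02) and RBP, the riboflavin binding protein, 0.94 (SE 0.38). PIT54 passed the filter in ovary only through the ad libitum group, which favours a fold change above 0. In adipose tissue 7 of the 8 tested were below 0 and 1 above, with a median of -1.30, and RBP had -1.16 (SE 0.49). In liver 7 were above and 4 below 0, with a median of 0.06. CP had 739, 1237 and 606 CPM in ad libitum livers and 429, 463 and 308 CPM in restricted livers, again without overlap (1.11, SE 0.30; edgeR, adjusted p = 0.324), as was found for 10.2% of the genes tested in liver in that direction. EXFABP, a lipocalin, had 1.10 (SE 0.44) and APOA4 had -0.69 (SE 0.30) in liver. None of the list passed the adjusted threshold in any tissue.

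Of other plasma proteins secreted by the liver, 21 of 22 had an identifier, and none passed the adjusted threshold. In ovary 9 of the 14 tested were above 0 and 3 of these had an unadjusted p under 0.05, namely VTN (vitronectin, 1.34), PLG (plasminogen, 2.37) and F2 (prothrombin, 1.13), against 4.85% of all genes tested. PLG passed the filter in ovary only through the ad libitum group, which favours a fold change above 0. In adipose tissue 12 of 13 were below 0, and AGT (angiotensinogen, -2.70), LECT2 (-3.89) and A2M (-1.82) had the smallest p. AGT, LECT2, A2M, FGA, FGB, FGG and PLG passed the filter there only through the restricted group, as hen F1723 lay under 1 CPM. The filter thus favours a fold change below 0 for these genes. In liver 17 of 21 were above 0, and A2M (0.79), AGT (0.58) and FGA (a fibrinogen chain, 0.86) had the smallest p, while SERPINA3 (1.81, SE 0.76) and LECT2 (2.02, SE 1.34) had larger fold changes with larger errors. LECT2 passed the filter in liver only through the ad libitum group. AGT and A2M had fold changes above 0 in liver and below 0 in adipose tissue, and this difference was not tested.

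Receptors and partners of the carriers were matched for 13 of 22 symbols, and none passed the adjusted threshold. STRA6, the receptor of the retinol binding protein that travels with transthyretin, had 2.28, 1.17 and 1.42 CPM in ad libitum ovaries and 0.707, 0.433 and 0.451 CPM in restricted ovaries (log2 fold change 1.62, SE 0.43; edgeR, adjusted p = 0.878). THRB, a thyroid hormone receptor, had 3.30, 7.10 and 9.97 CPM in ad libitum ovaries and 2.65, 2.89 and 2.51 CPM in restricted ovaries (1.34, SE 0.44; edgeR, adjusted p = 0.878). The groups did not overlap for either gene, as for 6.01% of the genes tested. STRA6 passed the filter only through the ad libitum group, with all restricted ovaries under 1 CPM, which favours its separation. In liver DAB2, an endocytic adaptor, had 0.84 (SE 0.20), while CYP27A1, which hydroxylates sterols and vitamin D, had -0.91 (SE 0.26) and AMN, a partner of the uptake receptor cubilin, had -1.64 (SE 0.56). AMN passed the filter only through the restricted group, as hen L1721 lay under 1 CPM. In adipose tissue CYP24A1, which inactivates vitamin D, had -1.64 (SE 0.52). CYP24A1 passed the filter there only through the restricted group, with all ad libitum hens under 1 CPM, which favours a fold change below 0. Over the list 4 of 10 were above 0 in liver, 5 of 8 in adipose tissue and 6 of 12 in ovary.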

How the data were processed

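The authors deposited raw counts of reads per Ensembl gene for 18 libraries, not normalized. They mapped reads to Gallus_gallus-5.0, and the submitters' processing notes name CASAVA 1.8, TopHat2 2.1.1 and Bowtie2 2.0.6. Strand and multiple-mapping modes of the counting are not given in the sources used here, and gene positions are not given for this build. Members were matched by symbol in the study's gene tables, and the members and lists were chosen with earlier results of these data known. The named genes are all members, up to 3 genes with the smallest p of each list and tissue, and the genes most like a member; within-hen ratios and other named values were chosen after the data had been seen. Per tissue, genes with more than 1 CPM in all 3 hens of a feeding group or of both were tested with edgeR 4.0.16 in R 4.3.3 (TMM, quasi-likelihood, Benjamini-Hochberg FDR under 0.1). SE is the size of the fold change divided by the root of F. Interactions used 12 libraries, with and without the hen as a replicate block. The block rests on the same hen giving each tissue. Deviations from group means of the same hen correlated across genes with r of 0.0061 to 0.294 between ovary and adipose tissue, -0.160 to 0.185 between ovary and liver, and -0.134 to 0.310 between adipose tissue and liver. Alternatives were DESeq2 1.42.0, likelihood ratio tests, other size factors, other filters, FDR under 0.05, 1 fit of 18 libraries and leaving out each hen. The edgeR tests within each tissue were also run on counts simulated from the negative binomial model that they assume. Such a run does not check the model itself. Floors of 3 counts cover counting error only. The ratios over all genes had 0.5 counts added. Figures were drawn with matplotlib 3.10.9 in Python 3.11.15.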

Additional observations from a re-analysis of the deposited data

How the results depend on the processing

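No alternative but 1 changed the count of carriers called, which was 0 in each tissue and interaction. The likelihood ratio test with trended dispersions called 3 in adipose tissue and 3 in ovary. Of 365 values of single carriers under an alternative, 358 kept their direction. The 7 that did not came from leaving out 1 hen. Over these fits the liver fold change ran from -0.11 to 0.06 for ALB (above 0 without hen L1721, 0.03, or L6710, 0.057) and from -0.10 to 0.09 for AMBP (above 0 without hen L1721, 0.0928, or L1724, 0.0934), and the adipose fold change of TF from -1.94 to 0.55 (above 0 without hen F6709). The difference of adipose tissue from liver ran from -2.11 to 0.45 for TF (above 0 without hen F6709) and from -2.25 to 0.35 for AHSG (above 0 without hen F1725). The interactions of ovary and adipose tissue ran from 3.15 to 5.08 for ALB, 2.65 to 3.29 for GC, 2.41 to 4.03 for AMBP, 2.38 to 4.605 for AHSG, 0.93 to 3.47 for TF and 0.02 to 1.22 for TTR. In paired fits with the replicate block no carrier passed the adjusted threshold. With library size alone the median of all genes in liver was -0.10. GC, AMBP and AHSG gave no adipose value, and AMBP and AHSG no ovary value, when all 6 libraries had to exceed 1 CPM. AMBP and AHSG counts of 0 to 5 in some adipose and ovary libraries limit their ratios.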
